A study of Sus scrofa with 6 samples.

Results

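The miR-148 and miR-152 family was followed in the left atrium (LA) of paced and sham pigs. Its members on the array were all probes named for porcine miR-148a, miR-148b or miR-152, with or without an arm suffix. This rule gave 5 of the 322 porcine miRNA probes, namely ssc-miR-148a-3p, ssc-miR-148a-5p, ssc-miR-148b-3p, ssc-miR-148b-5p and ssc-miR-152, and none was left out. The species prefix is dropped below. The samples were LA tissue of 3 paced animals, labelled as the PAF (paroxysmal atrial fibrillation) group, and of 3 sham-control animals, with 1 array per animal. Per the study's methods the animals were Large White pigs of 3 months, whereas the labels speak of neonatal piglets. The paced animals had burst pacing through a catheter in the right atrium after the beta blocker esmolol, the sham animals had no burst pacing, and the LA was taken on the following day. The methods also speak of anaesthesia and ventilation, without naming the agents, and the labels name no allele or transgene. The pacing was external and brief, with episodes that ended on their own, so the model does not hold long-lasting fibrillation.

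MicroRNAs repress mRNAs mainly by pairing of their seed, bases 2 to 8 from the 5′ end, with sites in the mRNA. Each hairpin precursor gives a 5p and a 3p strand, and usually only one of them is kept at high level. In the miR-148 and miR-152 family the 3p strand is the abundant one. The family is best known for repressing the DNA methyltransferase DNMT1. For miR-148a, which is abundant in liver, repression of the LDL receptor and of the cholesterol exporter ABCA1 has also been described, and in dendritic cells the family represses the kinase CaMKII alpha.

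The mature miRNA sequences listed for the probes are shown because the family is defined by them and because they set how well 5 probes can be told apart. The seed is in capitals.
miR-148a-3p: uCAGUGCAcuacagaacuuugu
miR-148b-3p: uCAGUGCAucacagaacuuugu
miR-152: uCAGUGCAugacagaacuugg
miR-148a-5p: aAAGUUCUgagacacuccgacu
miR-148b-5p: gAAGUUCUguuauacacucaggc
The seed CAGUGCA was shared by 3 of the 322 probes, all 3 of them members. The seed AAGUUCU was shared by the 2 probes of the 5p strands and by no other probe. The label of miR-152 gives no arm, and its sequence carries the seed of the 3p strands. Counted from base 1 at the 5′ end, miR-148b-3p differed from miR-148a-3p by C9U and U10C, so that 20 of 22 bases were identical. Compared with miR-148a-3p, miR-152 had C9U, U10G and U20G over the 21 bases they share. Compared with miR-148b-3p it had C10G and U20G. Outside the family, no probe of the array came within 6 differences of a member. How far a probe of one 3p strand also binds the other 2 was not tested, so their levels are to be read with that reserve. The 5p strands were less alike, with 13 of 22 bases identical.

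The 3 hairpins come from separate genes. In the RefSeq gene table of the Sscrofa11.1 assembly, MIR148B lies inside COPZ1 and MIR152 inside COPZ2, which encode 2 versions of a coatomer subunit of vesicle transport. MIR148A lies inside no listed gene. Each has a gene of the NFE2 transcription factor family as a neighbour, NFE2L3 for MIR148A, NFE2 for MIR148B and NFE2L1 for MIR152. The files name no genome build, so no coordinates are given.

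The 3p strands were clearly measured in every animal, and the 5p strands in none. A probe counts here as well above background where its 9 repeat spots have a median more than 3 SD of the empty spots over the empty-spot median. This held on all 6 arrays for miR-148a-3p, miR-148b-3p and miR-152, and on no array for miR-148a-5p and miR-148b-5p. The count for the 5p strands was also 0 against the 15 nearest empty spots. The medians of the empty spots ranged from 64.7 to 214.1 scanner units on the sham arrays and from 242.5 to 399 units on the paced arrays, so every paced array had more background than every sham array. Its part in the results was not tested beyond the corrections listed under the processing.

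**Figure D1:**
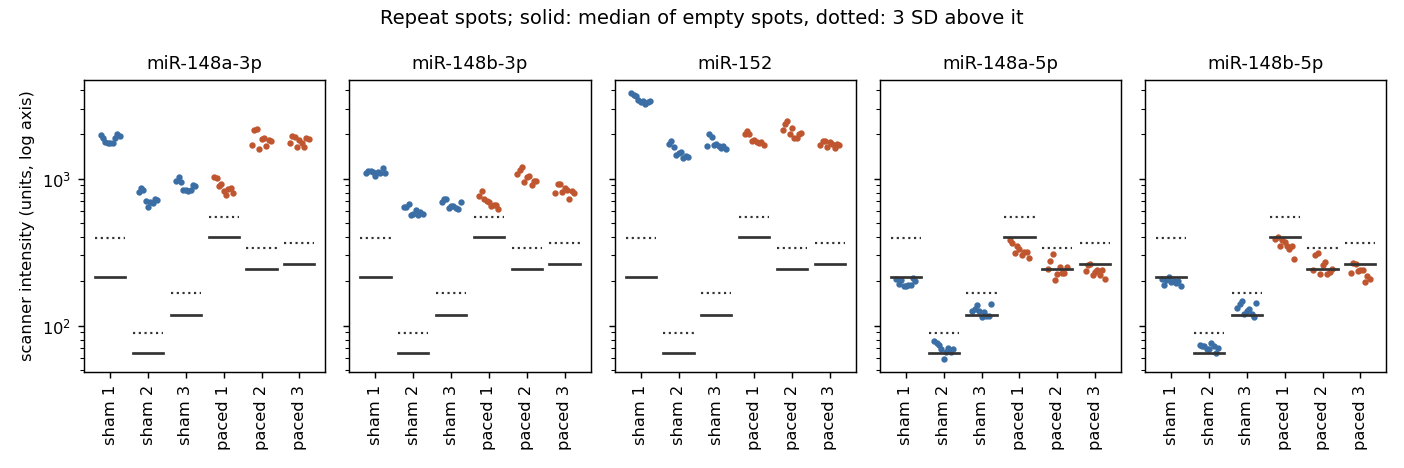
Scanner intensity (units, log axis) of the 9 repeat spots of each family probe on the 6 arrays (blue sham, orange paced), with the median of the empty spots (solid line) and 3 SD above it (dotted line). The spots of the 3 probes with the 3p seed lie above the dotted line on every array, and those of the 2 5p probes lie around the empty-spot signal.

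For miR-148a-3p the scanner medians of the sham animals (replicates 1, 2 and 3, in this order throughout) were 1882, 712 and 893 units. Those of the paced animals were 867, 1838 and 1819 units. The signal was 2.17 times the empty-spot median in paced replicate 1, the array with the highest background, and at least 6.96 times on each other array. After background correction and quantile normalization its log2 values were 10.10, 9.79 and 9.92 in sham animals. They were 9.81, 10.66 and 10.76 in paced animals. Paced replicates 2 and 3 lay 1.65 and 1.77 times above the sham mean, while paced replicate 1 lay inside the sham range, so the groups overlapped. The sham mean was 9.94 ± 0.15 and the paced mean 10.41 ± 0.52 (SD, n = 3 each). The difference of 0.47 (SE 0.25, limma, adjusted p = 0.495) did not exceed the spread between paced animals. Its 95% interval ran from -0.12 to 1.07, which is a ratio of paced over sham from 0.919 to 2.10. The standard error over the 9 repeat spots, which covers technical error within an array only, lay between 0.03 and 0.06 log2 units. Measured in whole tissue, a change in the share of a cell type and a change in RNA per cell cannot be told apart.

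The value of miR-148a-3p depended on paced replicate 1. With this animal left out, the difference was 0.78 (SE 0.10, limma, adjusted p = 0.0150). Leaving out any other animal gave 0.29 to 0.57, with adjusted p values from 0.649 to 0.837. Without paced replicate 1, 9 of the 322 probes (2.8%) passed the adjusted threshold, and miR-148a-3p was the only family member among them. On the leading principal component of the 104 probes that passed this background criterion on every array, the sham animals lay between -0.75 and -0.05. Paced replicate 1 lay below them at -2.09, and the other paced animals lay above them at 1.89 and 1.29, so that all 3 paced arrays were away from the sham arrays, in both directions. The labels give no reason to set this animal aside, and it was kept.

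For miR-148b-3p, which is identical to miR-148a-3p outside bases 9 and 10, the scanner medians were 1107, 593 and 656 units in sham and 697, 1019 and 819 units in paced animals. The signal was weakest in paced replicate 1, at 1.75 times the empty-spot median and 5.94 SD of the empty spots above it. After normalization the sham animals were at 9.48, 9.50 and 9.51 log2 units. The paced animals were at 9.41, 9.56 and 9.44, so that the paced values lay on either side of the sham values. All 6 animals were within a range of 0.15 log2 units, a ratio of 1.11 between the highest and the lowest. The range was wider in the authors' processed values, from 554 units in paced replicate 1 to 683 units in paced replicate 2. The difference was -0.03 (SE 0.07, limma, adjusted p = 0.885), and its 95% interval, from -0.19 to 0.13, corresponds to a ratio of paced over sham from 0.875 to 1.10.

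For miR-152 the scanner medians were 3384, 1487 and 1670 units in sham and 1809, 2044 and 1723 units in paced animals. After normalization the sham animals were at 11.01, 10.73 and 10.87 log2 units, and the paced animals at 11.11, 10.87 and 10.68. Here paced replicate 1 was the highest and paced replicate 3 the lowest of all 6 animals. The order of the paced animals was thus opposite to that for miR-148a-3p, whereas the sham animals had the same order for both. In limma the paced group differed by 0.02 (SE 0.13, adjusted p = 0.964), with a 95% interval from -0.29 to 0.32, a ratio of paced over sham from 0.819 to 1.25.

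**Figure D2:**
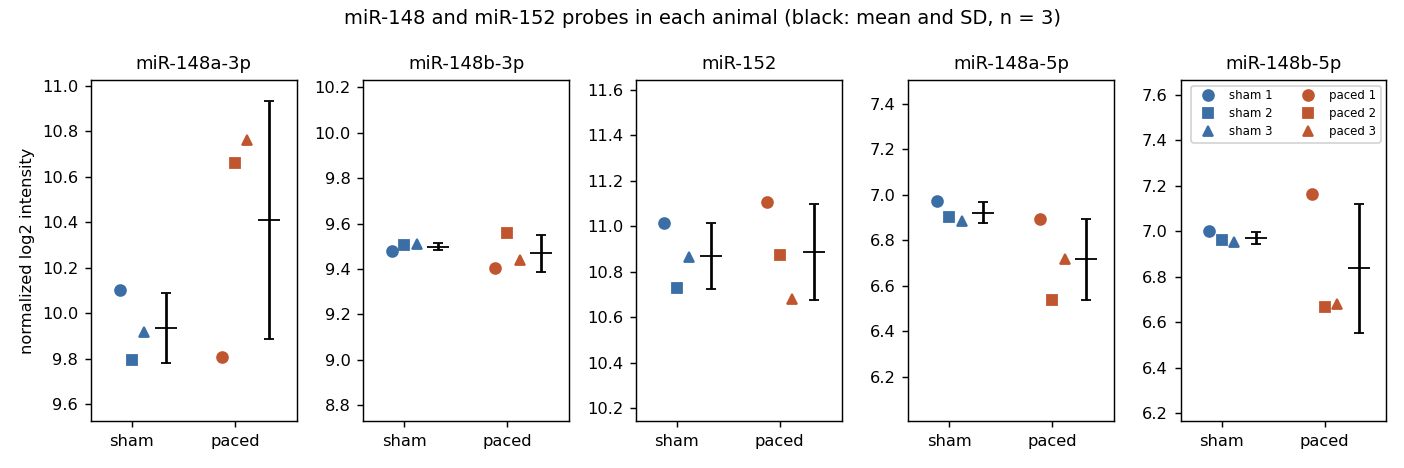
Normalized log2 intensity of the 5 family probes in each animal (circle, square and triangle for replicates 1, 2 and 3; black, mean and SD, n = 3), with the same span of 1.5 log2 units on each axis. For miR-148a-3p, paced replicates 2 and 3 lie at 10.66 and 10.76, above all sham animals, and paced replicate 1 at 9.81, while miR-148b-3p lies between 9.41 and 9.56 in all 6 animals.

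The 5p strands, which are usually degraded once the 3p strand is loaded, gave signals at the level of the empty spots. The scanner median of miR-148a-5p was between 0.791 and 1.08 times the empty-spot median over the 6 arrays, and that of miR-148b-5p between 0.878 and 1.13 times. The normalized log2 values of miR-148a-5p were 6.97, 6.90 and 6.89 in sham and 6.89, 6.54 and 6.72 in paced animals. Those of miR-148b-5p were 7.002, 6.96 and 6.95 in sham and 7.16, 6.67 and 6.68 in paced animals. The limma differences were -0.20 (SE 0.10, adjusted p = 0.489) and -0.13 (SE 0.14, adjusted p = 0.753). As neither probe was well above background in any animal, these values give no level and no fold of the strands. Both differences became positive with plain subtraction of the background, without normalization, and with scaling to the detected probes.

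Across the family, 0 of 5 members passed the adjusted threshold in limma and 0 passed the unadjusted threshold of 0.05, where 10.6% of the 322 probes did. The methods' t-test on these log2 values also gave 0 of 5 before adjustment. Over the 20 alternatives, the adjusted threshold was passed under 2. Without paced replicate 1 it was passed by miR-148a-3p alone, and 3 of 5 members passed the unadjusted one, where 20.8% of all probes did. With scaling to the detected probes it was passed by miR-148a-3p and by miR-148b-5p, which was at background, where 53.1% of all probes passed, and 3 of 5 members passed the unadjusted threshold, where 56.2% did. In both settings the 3 were miR-148a-3p and the 5p strands. With the scaling, limma gave all 5 members the same SE, so those calls do not rest on the spread of each probe. miR-148a-5p alone passed the unadjusted threshold with the median of the repeat spots, with a trend and robust prior, and in the methods' t-test on the processed values. The paced and sham values overlapped for all 5 members. Over all probes the groups did not overlap for 17.4%.

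The 3 probes that share a seed differed in how much the animals of a group varied. The pooled SD of the log2 values within groups was 0.39 for miR-148a-3p, 0.18 for miR-152 and 0.06 for miR-148b-3p. Among the 104 probes detected by this criterion on every array these were percentiles 96.6, 58.2 and 4.33. The value for miR-148a-3p rested on paced replicate 1, without which it was 0.13, at percentile 51.4. With any other animal left out it stayed between 0.37 and 0.44. For miR-148b-3p the SD was 0.02 without paced replicate 2 and between 0.05 and 0.07 without any other animal, at percentiles from 3.37 to 7.21. These values without an animal were added after the data were examined. The percentiles were not computed under another normalization.

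**Figure D3:**
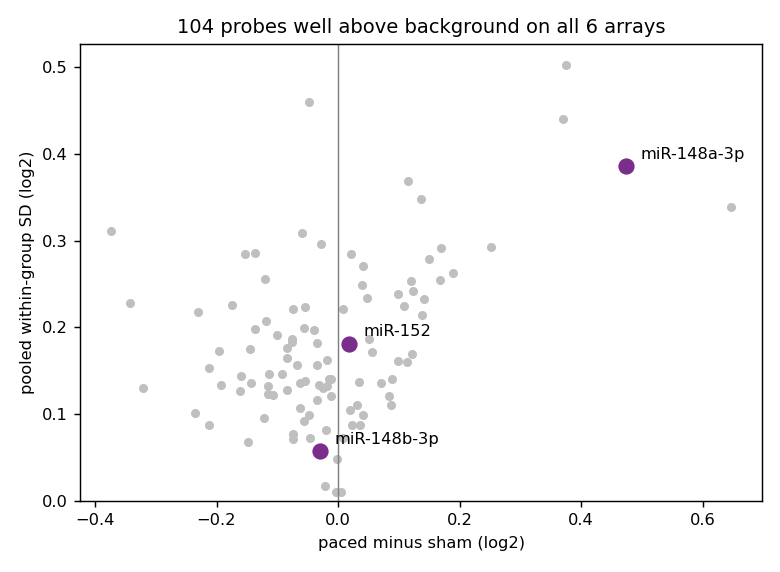
Pooled within-group SD against the difference between paced and sham animals (both in log2 units) for the 104 probes that met the background criterion on every array, with the 3 family members in purple. miR-148a-3p lies at a difference of 0.47 and an SD of 0.39, miR-152 at 0.02 and 0.18, and miR-148b-3p at -0.03 and 0.06.

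Whether the members moved apart was measured within each animal, as the difference in log2 value between 2 probes of the same array. Only the change of this difference between groups is read, since probes differ in brightness. For miR-148a-3p minus miR-152 the sham animals gave -0.91, -0.93 and -0.95. The paced animals gave -1.30, -0.21 and 0.08. The sham animals were thus alike, with an SD of 0.02, whereas paced replicate 1 lay below and the other paced animals above all of them, with an SD of 0.73. The mean changed by 0.46 from sham to paced (exact permutation test, two-sided, p = 0.4). An exact test of 3 against 3 animals cannot give a p below 0.1. Without paced replicate 1 the change was 0.87, and without paced replicate 3 it was 0.16.

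For miR-148a-3p minus miR-148b-3p the values were 0.62, 0.29 and 0.41 in sham and 0.40, 1.10 and 1.32 in paced animals. The change of 0.50 (exact permutation test, two-sided, p = 0.3) again came from paced replicates 2 and 3. It was positive in all 16 alternative settings, between 0.30 and 0.78. For miR-148b-3p minus miR-152 the change was -0.05 (exact permutation test, p = 0.8). Its sign turned under 6 of 16 settings. Between the arms of miR-148a the change was 0.68 (exact permutation test, p = 0.3), and between those of miR-148b 0.10 (exact permutation test, p = 0.7). Both rest on a 5p probe at background, and the former was 0.03 without normalization and with scaling to the detected probes, and 4.44 (exact permutation test, p = 0.1) on the log2 processed values. After adjustment over the 5 pairs compared, the p values were 0.667 or 0.8. The 3 pairs that hold a miR-148b probe were added after the data were examined.

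**Figure D4:**
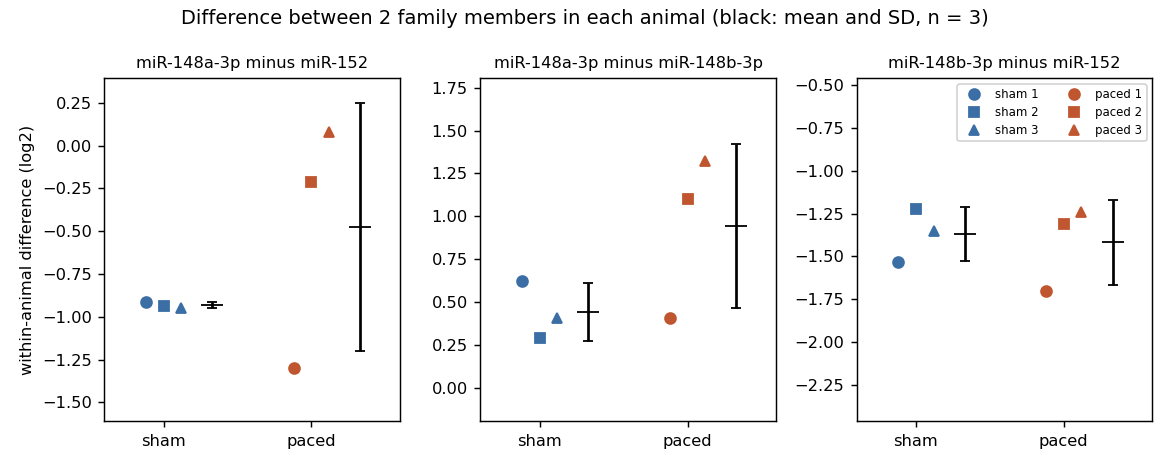
Within-animal difference in log2 intensity between 2 family members in sham and paced animals (symbols are replicates; black, mean and SD, n = 3). For miR-148a-3p minus miR-152 the sham animals lie between -0.95 and -0.91 and the paced animals between -1.30 and 0.08.

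The miRNAs most like each measured member over the 6 arrays were sought among the other probes that met the background criterion on every array, by Pearson's r of the log2 values. All values come from the same arrays and normalization. For miR-148a-3p they were miR-186 (r = 0.96), the muscle miRNA miR-1 (r = 0.93) and miR-499-5p (r = 0.88), which is encoded in a myosin heavy chain gene. The log2 values of miR-186 were 9.39, 9.11 and 9.30 in sham and 9.08, 9.80 and 9.67 in paced animals. Those of miR-1 were 12.97, 12.96 and 13.20 in sham and 12.62, 13.70 and 13.93 in paced animals. Like miR-148a-3p, these 2 were highest in paced replicates 2 and 3. Over the other 4 arrays alone r was 0.94 for miR-186, 0.35 for miR-1 and 0.77 for miR-499-5p. For miR-152 the nearest were miR-17-5p (r = 0.95), the endothelial miR-126-3p (r = 0.88) and miR-676-3p (r = 0.87). For miR-148b-3p they were miR-149 (r = 0.93), miR-101 (r = 0.87) and miR-19b (r = 0.83). None of these 9 miRNAs shares the family seed. Between the members themselves r was -0.43 for miR-148a-3p and miR-152, 0.21 for miR-148a-3p and miR-148b-3p, and -0.31 for miR-148b-3p and miR-152. The 2 5p probes were at background, and their nearest probes are not described.

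Marker miRNAs of other cell types were read beside these values. Of the 7 cardiac muscle probes, 5 were well above background on all arrays, and miR-499-3p on none. Their summed level was 15.89, 15.88 and 15.94 log2 units in sham and 15.83, 16.06 and 16.07 in paced animals, again highest in paced replicates 2 and 3. Of the 7 probes, only miR-1 and miR-499-5p were highest in both of these animals. The brightest, miR-133a-3p and miR-133b, weigh most in the sum and had a pooled SD of 0.01 each. Quantile normalization gives every array the same set of values, which holds the brightest probes nearly fixed. Their small SD therefore does not show a steady level. The values of miR-133a-5p were lowest in paced replicate 3, at 9.82. The part of this sum in the pattern of miR-148a-3p was not tested. The liver miRNA miR-122 met the background criterion on none of the arrays. The summed red blood cell markers (3 probes) ranged from 13.57 to 14.06 in sham and from 13.01 to 13.59 in paced animals. Of the 3, miR-486 passed the unadjusted threshold, as did 10.6% of all probes. Its log2 values were 8.47, 8.92 and 8.96 in sham and 7.88, 8.20 and 8.16 in paced animals. They did not overlap, as for 17.4% of all probes, and the difference was -0.70 (limma, adjusted p = 0.134). In paced replicate 1, its lowest value, miR-486 was not well above background. The part of miR-486 in the values of the family was not tested. The summed smooth muscle markers (4 probes) ranged from 14.23 to 14.49 in sham and from 14.07 to 14.22 in paced animals, so that the groups were apart by a small margin. Of the 4 probes, only miR-143-3p had groups that did not overlap, beside 17.4% of all probes. The part of these markers in the values of the family was not tested. Between sham and paced animals the ranges overlapped for the endothelial (2 probes), fibroblast (5 probes) and leukocyte (5 probes) markers, and 3 of the 5 leukocyte probes, among them miR-142-3p and miR-142-5p, met the background criterion on none of the arrays.

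Other miRNAs known to repress DNA methyltransferases had 10 probes on the array, for miR-29a, miR-29b, miR-29c, miR-101, miR-126, miR-143, miR-185 and miR-342. Of these, 1 was higher and 1 lower in paced animals at the unadjusted threshold, where 3.42% of all probes were higher and 7.14% lower, and 0 passed after adjustment. The lower one was miR-143-3p, a smooth muscle miRNA, with a difference of -0.32 (adjusted p = 0.323), and the other was miR-126-5p at 0.37 (adjusted p = 0.357), which met the background criterion on none of the arrays. The next by p were miR-342 at -0.16 and miR-29b at 0.43 (adjusted p = 0.646 and 0.739). The median difference over the list was -0.03, and over all probes 0.00. The 4 probes of miR-126 and miR-143 also stand among the marker miRNAs.

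Other miRNAs known to act on cholesterol and lipoprotein genes had 10 probes, for miR-27a, miR-27b, miR-30c, miR-122, miR-128, miR-130b, miR-144 and miR-301, while no probe bore the names miR-33a, miR-33b or miR-223. At the unadjusted threshold 0 were higher and 3 lower in paced animals, beside the 7.14% of all probes that were lower, and 0 passed after adjustment. The 3 were miR-27b-5p at -0.27, miR-30c-3p at -0.25 and miR-128 at -0.21, with adjusted p values from 0.168 to 0.399. Of these only miR-128 was well above background on all 6 arrays. The next by p was miR-27a at 0.19 (adjusted p = 0.739). The median difference over the list was -0.08.

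In the processed values that the authors deposited, miR-148a-3p was at 1063, 735 and 825 intensity units in sham and at 826, 1426 and 1602 units in paced animals. For miR-148b-3p the group means were 589 ± 20.8 units in sham and 618 ± 64.6 units in paced animals (SD, n = 3). For miR-152 they were 1824 ± 391 and 1768 ± 303 units (SD, n = 3 each). As in the log2 values, paced replicates 2 and 3 were the highest for miR-148a-3p. For miR-152 the highest was sham replicate 1 at 2271 units, ahead of paced replicate 1 at 2112 units, and for miR-148b-3p paced replicate 3 was the second highest, so that the order of the animals differed from that of the log2 values. The signs of the group differences of miR-148b-3p and miR-152 turned.

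**Figure D5:**
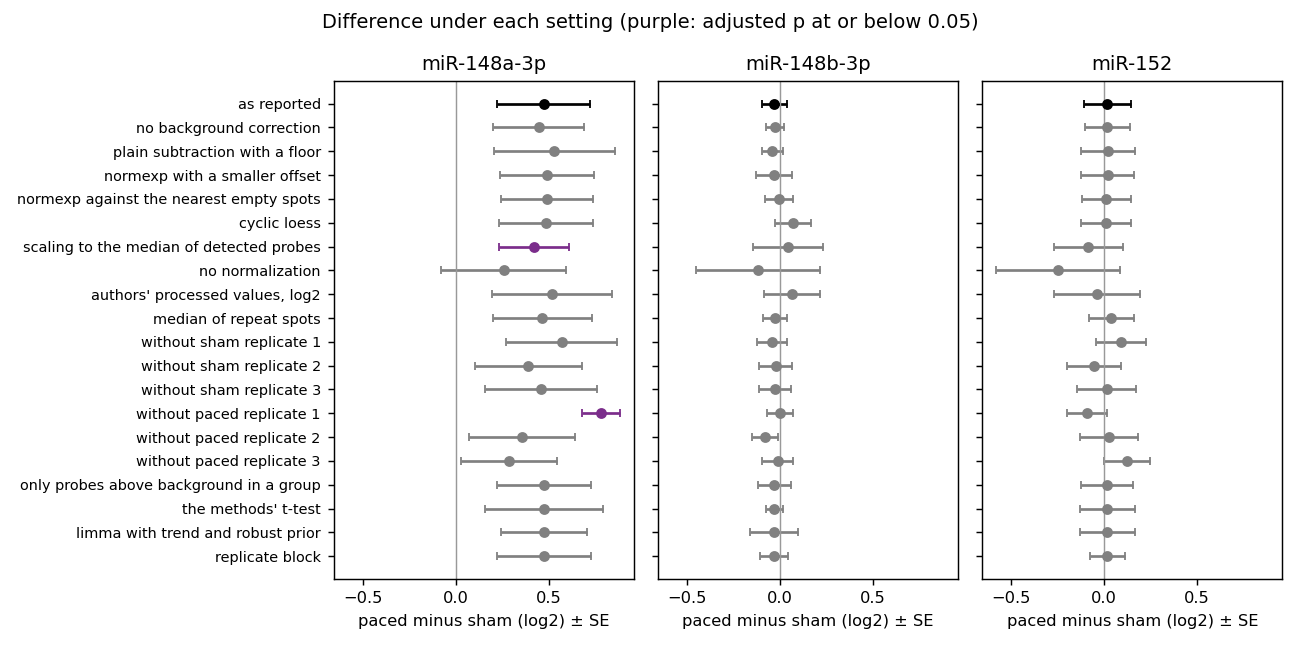
Difference between paced and sham animals (log2, ± SE) for the 3 measured members under each processing setting, with purple marking an adjusted p at or below 0.05. miR-148a-3p stays positive throughout, from 0.26 to 0.78, whereas miR-148b-3p and miR-152 lie on both sides of 0.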

How the data were processed

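Total RNA of 6 LA samples was tailed, stained with Cy3 and hybridized by the authors' provider to 1-colour arrays with 322 porcine miRNA probes. For each array the authors deposited the median intensity of every spot (3968 spots, of which 1070 are controls and 786 of these empty) on a linear scale, without background subtraction or normalization. They also deposited 1 processed intensity per probe, whose background and normalization steps are not given in the sources used here.

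Samples were grouped by their labels. Spots were corrected with normexp (offset 50) in limma (version 3.58.1, R 4.3.3), and control spots were left out. The rest were transformed to log2, quantile-normalized and averaged over repeat spots. The groups were compared with lmFit and eBayes over all 322 probes, with Benjamini-Hochberg adjustment at 0.05. Differences between 2 probes of an animal were compared with exact permutation tests. The processing was tested on simulated data, with larger changes and less spread between animals than miR-148a-3p had. That test does not cover differences like that of miR-148a-3p. The number of arrays limits the precision. Figures used Python 3.11.15 and matplotlib 3.10.9.

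The members and lists were chosen with earlier results of these data known. Named miRNAs are the 5 members, the 3 most similar probes of each, and the 4 probes with the lowest p in each of the 2 lists of other regulators. Marker miRNAs of cell types were named after their values were seen. Sequences are those of the array files. Alternatives concerned the background, normalization, summary of spots, test, replicate block, and each animal left out. No slide or scan is named in the files, so a block for slide or scan was not run.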

Additional observations from a re-analysis of the deposited data

How the results depend on the processing

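The difference of miR-148a-3p stayed positive under all 20 alternatives, from 0.26 without normalization to 0.78 without paced replicate 1 on the log2 scale, and ranged from 0.29 to 0.78 with 1 animal left out. It passed the adjusted threshold without paced replicate 1 and under scaling to the detected probes (0.42, adjusted p = 0.0473). With the scaling, limma gave every member the same SE of 0.19, so this p does not reflect the spread of miR-148a-3p itself. This scaling moved the median difference of all probes to 0.44 and that of the 104 probes detected on each of the arrays to -0.08. Within animals miR-148a-3p then changed by 0.51 against miR-152 and by 0.38 against miR-148b-3p (exact permutation p = 0.4 and 0.2). With that scaling, without normalization (median shift 0.27) and with plain subtraction, miR-148a-5p turned to 0.39, 0.23 and 0.023, and miR-148b-5p to 0.46 (adjusted p = 0.0292), 0.30 and 0.029. Scaling gave 0.045 for miR-148b-3p and -0.084 for miR-152. The latter was -0.25 without normalization, and miR-148b-3p was 0.069 with cyclic loess. On the authors' processed values miR-148b-3p was at 0.065 and miR-152 at -0.038 in log2 units, and at 29.3 and -56.3 intensity units in the methods' t-test. With 1 animal left out, miR-148a-5p ranged from -0.27 to -0.11, miR-148b-3p from -0.08 to 0.00, miR-148b-5p from -0.27 to -0.04 and miR-152 from -0.094 to 0.12, which was -0.054 without sham replicate 2.

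For miR-148b-3p minus miR-152 the change was 0.059 with cyclic loess, 0.13 with scaling and without normalization, 0.10 on the processed values and -0.14 to 0.093 with 1 animal left out. For the arms of miR-148b it was -0.070 with subtraction, -0.42 with scaling and without normalization, and -0.036 to 0.27 with 1 animal left out. With 1 animal left out, the change of miR-148a-3p ranged from 0.46 to 1.05 against miR-148a-5p and from 0.16 to 0.87 against miR-152. Against miR-148a-5p it was 0.030 with scaling and without normalization, and 4.44 on the log2 processed values.

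Of the 322 probes, 34 (11 higher, 23 lower) passed the unadjusted threshold and 0 the adjusted one. With scaling these were 181 (176 higher, 5 lower) and 171, without normalization 15 (all higher) and 0, and with only probes above background in a group tested 5 and 0. The split was 19 higher to 17 lower against the nearest empty spots, 20 to 11 on the log2 processed values and 18 to 22 with a trend and robust prior. With 1 animal left out the counts ranged from 19 to 67 and from 0 to 9. With the replicate block the difference of miR-148a-3p had an adjusted p of 0.501, and no call on a member changed. Same-numbered animals correlated at 0.17, -0.01 and 0.21, and differently numbered ones at -0.24 to 0.09. So few values cannot decide whether the numbers pair the animals, and the main fit did not pair them. The cause of these changes was not tested. Signal over background limits the 5p strands, which give no level.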
